A study of Mus musculus with 10 samples.

Results

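The genes described here are the 4 Id genes (Id1, Id2, Id3, Id4), the homeobox genes Msx1 and Msx2, the Smads Smad5, Smad6 and Smad7, and the receptor gene Bmpr1a, read in oocytes of mouse fetuses at E14.5. They were chosen by name, as known targets and transducers of bone morphogenetic protein (BMP) signalling, and make up 10 of the 55536 genes in the count table. RNA was sequenced in bulk from female germ cells sorted for the fluorescence of an Oct4-EGFP transgene, for which the parents were homozygous. The parents were also heterozygous for a mutation of Taf4b, a germ-cell subunit of the general transcription factor TFIID, and their fetuses gave 4 Taf4b-deficient, 4 Taf4b-heterozygous and 2 Taf4b-wildtype libraries. The labels give the strain as C57BL/6 and call deficient animals infertile and both other genotypes fertile. All 10 libraries thus come from reporter-bearing fetuses of carrier crosses, and a library is called below by its genotype and replicate number. The fetuses came from litters dated January 29, March 1 and March 7. Whether libraries are separate fetuses is not stated, nor which part of Taf4b the mutation removes, so the p-values below rest on the scatter between libraries, some of which may be technical.

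BMP ligands bind paired receptors, among them the type I receptor encoded by Bmpr1a, which phosphorylate the receptor-regulated Smads 1, 5 and 9. These enter the nucleus with Smad4 and switch on direct targets, of which the Id genes are the best known. Id proteins lack a DNA-binding domain and sequester the E proteins, basic helix-loop-helix partners of many tissue factors, and Msx1 and Msx2 are homeodomain repressors that mouse fetal ovaries use in the BMP-dependent start of meiosis. Smad6 and Smad7 are inhibitory Smads that are induced by the pathway and close a negative feedback loop.

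The sorted cells carried the markers of germ cells. The 8 germ cell markers summed to between 5070 and 6420 CPM (counts scaled to a fixed library size) in each library, against 18.2 to 47.2 CPM for 10 supporting-cell markers and 5.07 to 15.1 CPM for 10 stromal markers. The 8 endothelial markers summed to 72.6 to 391 CPM, nearly all of it Pecam1, and to 7.83 to 12.3 CPM without that gene. Library totals lay between 28949924 and 44166320 counted reads. Taf4b itself averaged 60.8 ± 3.71 CPM in the 4 deficient libraries, against 199 ± 40.3 CPM in the 4 heterozygous and 180 ± 38.7 CPM in the 2 wildtype ones (± SD), so its RNA was reduced and not absent. The fall against heterozygous libraries was -1.71 on the log2 scale (edgeR adjusted p = 0.0118; -1.56 and adjusted p = 0.113 against wildtype), a call that 6 of the 10 fits without a single library lost, while the log2 fold change stayed between -1.80 and -1.59 in all 10. Deficient replicates 2 and 4 and heterozygous replicate 3 stood apart in the reads assigned to Lars2, with 634 to 2026 CPM against 12030 to 16990 CPM in the other 7 libraries, and are named below where they touch a result. The TPM of Lars2 did not show this split, at 16.2 to 28.4 over the 10 libraries. In bulk RNA, fewer cells of a kind and less RNA per cell cannot be told apart.

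Meiotic stage varied between libraries of the same age and genotype. Stage was scored as the mean log2 CPM of 26 meiotic recombination genes minus that of 19 pluripotency and early germ cell genes, none of which is among the 10 genes described, so a higher score means further into meiosis. Its mean was -1.44 ± 1.28 for the 4 deficient libraries, -0.25 ± 1.92 for the 4 heterozygous ones and -1.19 ± 0.199 for the wildtype pair (± SD). The 2 libraries lowest in the score were deficient replicate 3 at -3.11 and heterozygous replicate 1 at -3.10, and the 3 highest were the other heterozygous libraries, at 0.48 to 1.03.

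The promoters of 4 genes are shown because their RNA carries the results that follow. Msx1 and Msx2 are paralogues read against stage, Id2 separated deficient from heterozygous libraries, and Smad6 was lowest in wildtype libraries in CPM. Each is a 300-base RefSeq window around the annotated start (GRCm38.p6), given 5′ to 3′ along the gene, all of them on the minus strand. The windows span chr5:37824536-37824835 for Msx1, chr13:53472731-53473030 for Msx2, chr12:25096043-25096342 for Id2 and chr9:64022010-64022309 for Smad6. Capitals mark the letters GTCT (the core of the Smad box, searched on both strands as GTCT and AGAC), the palindrome GTCTAGAC, which joins both of those, and the GC-rich form GGCGCC, which is its own reverse complement.
Msx1: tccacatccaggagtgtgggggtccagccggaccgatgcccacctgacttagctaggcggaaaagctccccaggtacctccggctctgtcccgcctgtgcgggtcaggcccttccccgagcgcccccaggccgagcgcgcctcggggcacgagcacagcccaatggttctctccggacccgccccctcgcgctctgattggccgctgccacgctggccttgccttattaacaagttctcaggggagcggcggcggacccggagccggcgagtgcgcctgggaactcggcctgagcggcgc
Msx2: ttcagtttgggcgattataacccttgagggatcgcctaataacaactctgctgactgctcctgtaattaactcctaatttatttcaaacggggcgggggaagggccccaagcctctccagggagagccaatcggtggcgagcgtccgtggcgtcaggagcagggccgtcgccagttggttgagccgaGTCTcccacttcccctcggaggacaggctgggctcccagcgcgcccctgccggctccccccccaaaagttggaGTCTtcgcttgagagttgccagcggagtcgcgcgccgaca
Id2: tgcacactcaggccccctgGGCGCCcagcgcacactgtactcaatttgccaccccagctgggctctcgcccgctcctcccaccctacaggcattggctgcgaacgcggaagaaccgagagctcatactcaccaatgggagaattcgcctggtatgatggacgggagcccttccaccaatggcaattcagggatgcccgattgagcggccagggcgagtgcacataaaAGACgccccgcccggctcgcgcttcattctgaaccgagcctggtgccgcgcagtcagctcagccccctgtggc
Smad6: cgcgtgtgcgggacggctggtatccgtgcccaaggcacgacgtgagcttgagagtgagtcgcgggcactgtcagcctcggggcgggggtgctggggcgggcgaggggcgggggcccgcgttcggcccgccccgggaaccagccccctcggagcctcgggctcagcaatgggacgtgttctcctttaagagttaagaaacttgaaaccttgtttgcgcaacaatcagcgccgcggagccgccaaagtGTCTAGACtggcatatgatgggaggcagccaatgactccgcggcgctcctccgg

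Windows were found in the RefSeq table for 8 of the 10 genes, and not for Id1 and Smad7. The Msx1 window held none of these letter strings, whereas the Msx2 window held GTCT 2 times. The Id2 window held GGCGCC 1 time, as did windows of Id4, Smad5 and Bmpr1a, and 11.9% of all 32851 promoter windows of this length held it. The palindrome was found in the Smad6 window alone among the 8 genes, and in 0.213% of all windows. GTCT or its reverse complement is too short to set a window apart, since 88.0% of all windows held it. The members' windows were 60.0% to 79.3% G and C, against a median of 52.7% over all windows. A match of letters is a description of the window and says nothing of what binds there.

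In the GENCODE annotation of GRCm38 all 10 are protein-coding, and the Id genes lie at chr2:152736251-152737410 for Id1, chr12:25093799-25097140 for Id2, chr4:136143497-136145755 for Id3 and chr13:48261228-48266026 for Id4. Bmpr1a lies at chr14:34410734-34503341, Smad5 at chr13:56703010-56742377 and Smad7 on chromosome 18, while Msx1, Msx2 and Smad6 overlap their windows shown above. All 10 genes were expressed and passed the filter on low counts, and their levels ran over a wide range. On the TPM scale (each library's transcripts scaled to a fixed sum, allowing for transcript length), Id3 was the highest, with a median of 592.8 TPM over the 10 libraries and 230 of 55536 genes above it. Id1 followed with a median of 214.5 TPM, then Msx1 with 124.4, Id2 with 90.61, Msx2 with 61.17 and Bmpr1a with 59.13 TPM. Smad5 stood at 30.86, Smad6 at 25.67, Id4 at 15.34 and Smad7 at 6.676 TPM. Only the step between Id3 and Id1 was free of overlap, the lowest Id3 library at 413 TPM lying above the highest Id1 library at 392 TPM. Id1 exceeded Msx1, Id2 exceeded Msx2, and Bmpr1a exceeded Smad5 within each of the 10 libraries although the ranges of these pairs overlapped. Msx1 exceeded Id2 in 7 libraries, Msx2 exceeded Bmpr1a in 8 and Id4 exceeded Smad7 in 7, so these neighbours do not keep one order. Against Smad6, its partner in feedback, Smad7 was the lower by median, and both medians lay below that of Smad5, the transducer they oppose. Smad5 exceeded Smad6 in 9 libraries, and in deficient replicate 4 Smad6 was the higher, at 28.15 against 24.35 TPM.

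**Figure D1:**
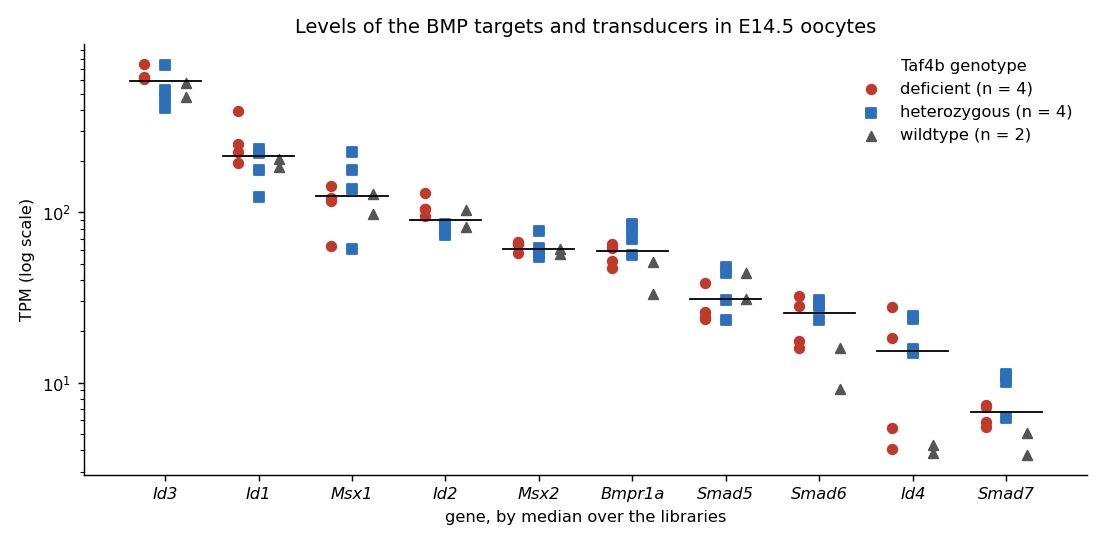
Level of each gene in TPM (log scale), 1 point per library, with deficient, heterozygous and wildtype libraries from left to right at each gene and a line at the median of the 10 libraries. Id3, at 413 to 750 TPM, lies clear of the other genes, and Id4 and Smad7 lie lowest.

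The spread between libraries also differed from gene to gene. Msx2 was the steadiest, at 70.8 to 98.6 CPM over the 10 libraries (coefficient of variation 10.5%), while its paralogue Msx1 ran from 67.4 to 220 CPM (34.6%). Id4 was the most variable, at 9.63 to 55.6 CPM (60.0%). Id3 and Id2 varied by 19.7% and 21.5%, Bmpr1a by 22.3% and Smad5 by 18.3%, and Id1, Smad6 and Smad7 by 31.2% to 33.6%.

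The genes fell into sets that were high in the same libraries, which is given here as a description over 10 libraries that share scaling and stage. Id1, Id2 and Id3 followed each other, with Pearson's r of log2 CPM of 0.868 for Id1 and Id3, 0.751 for Id2 and Id3 and 0.734 for Id1 and Id2, and deficient replicate 2 was the highest library for all 3. Id4 did not follow them, with r from -0.198 to -0.0097 against the other Id genes. It followed Smad6 instead (r = 0.824), and the same 4 libraries, deficient replicates 1 and 3 and both wildtype replicates, were the lowest for both genes. Smad6 and Bmpr1a had r = 0.908, Smad7 and Bmpr1a 0.79, and Smad6 and Smad7 0.723. For Id4, Smad6, Smad7 and Bmpr1a alike, the highest deficient libraries were replicates 2 and 4, those low in Lars2 reads. Heterozygous replicate 3, also low in Lars2 reads, was not the highest heterozygous library for any of these genes. The part of the Lars2 reads in these correlations was not tested. Msx1 and Msx2 had r = -0.079, and 0.324 on log2(TPM + 0.1). Msx2 ran with Id3 (r = 0.769, and 0.762 on log2(TPM + 0.1)) and had r = 0.545 with Id2 and 0.465 with Id1. On log2(TPM + 0.1) the r of Msx2 was 0.286 with Id2 and 0.435 with Id1. Smad5 followed none of the other genes above 0.325 (Msx1) in CPM. On log2(TPM + 0.1) the r of Smad5 and Msx1 was 0.814.

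Whether Taf4b loss changed the expression of BMP targets was read from deficient against heterozygous libraries, the larger pair of groups. None of the 10 genes changed in edgeR's quasi-likelihood test at an adjusted p under 0.05, where 0.0148% of the 20317 tested genes were called. Id1, Id2 and Id3 had unadjusted p under 0.05, 3 of the 10 genes, as had 11.9% of all tested genes, and DESeq2 and limma on TPM also called none of the 10. Fitted log2 fold changes were positive for 4 genes and negative for 6, with a median of -0.20 beside -0.054 over all tested genes. Transcript levels of the receptor, the transducer and both inhibitors had negative estimates, as had Id4 and Msx1, while Id1, Id2, Id3 and Msx2 had positive ones.

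Id2 was the only one of the 10 genes whose deficient and heterozygous libraries did not overlap, with the deficient ones higher, a pattern that 3.31% of tested genes had. It stood at 116.5, 144, 116.5 and 101 CPM in deficient replicates 1 to 4, against 92.7, 77.4, 84.5 and 77.3 CPM in heterozygous replicates 1 to 4, and at 116 and 85.2 CPM in the wildtype replicates. Each deficient library exceeded each heterozygous one, while the wildtype pair straddled the gap. The log2 fold change of deficient against heterozygous was 0.53 (SE 0.147, 95% interval 0.20 to 0.85; adjusted p = 0.346), and of deficient against wildtype 0.25 (SE 0.181, adjusted p = 1). Leaving out each library in turn, the difference from heterozygous libraries stayed between 0.42 and 0.62 (adjusted p = 0.0577 to 0.727).

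Id1, the classic immediate BMP target, had 134, 209, 128 and 99.8 CPM in deficient libraries, 65.8, 109, 111 and 86.6 CPM in heterozygous libraries, and 114 and 92.85 CPM in wildtype libraries. In Id1, 3 deficient libraries exceeded all heterozygous ones and deficient replicate 4 lay among them. The log2 fold change was 0.62 (SE 0.235, 95% interval 0.099 to 1.13; adjusted p = 0.383) against heterozygous and 0.46 (SE 0.293, adjusted p = 1) against wildtype libraries. Id3, the most abundant of the family, had 433, 526, 442 and 413 CPM in deficient libraries, 292, 344, 458 and 302 CPM in heterozygous and 426 and 313 CPM in wildtype libraries. The groups overlapped through heterozygous replicate 3, and the log2 fold change against heterozygous libraries was 0.38 (SE 0.166, 95% interval 0.011 to 0.74; adjusted p = 0.41).

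The estimates for these 3 Id genes were positive within each litter that held both genotypes. In the January 29 litter, with 2 deficient libraries and 1 heterozygous library, the log2 difference was 0.95 for Id1, 0.74 for Id2 and 0.66 for Id3. In the March 7 litter, with 1 deficient and 3 heterozygous libraries, it was 0.11, 0.26 and 0.20 in the same order. With the stage score as a covariate the estimates were 0.84, 0.51 and 0.47 (edgeR adjusted p = 0.203 to 0.324). Markers of blood cells and macrophages split the same groups, the 10 genes summing to 18.8 to 25.2 CPM in deficient, 8.1 to 16.6 CPM in heterozygous and 15.8 to 26.6 CPM in wildtype libraries. All 10 of these markers passed the filter on low counts, none was at 0 in every library, and Coro1a was the largest. Their part in the Id values was not tested.

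Id4, the family member known for marking spermatogonial stem cells in the mouse testis, had 10.5, 39.6, 13.5 and 55.6 CPM in deficient libraries, 49.6, 30.0, 45.0 and 28.9 CPM in heterozygous libraries, and 11.0 and 9.63 CPM in wildtype libraries. The deficient group thus held a low pair, replicates 1 and 3, at the level of the wildtype libraries, and a high pair, replicates 2 and 4, at the level of the heterozygous ones. The log2 fold change was -0.36 (SE 0.458, adjusted p = 0.736) against heterozygous and 1.54 (SE 0.607, unadjusted p = 0.0281, adjusted p = 1) against wildtype libraries. The high pair are the deficient libraries low in Lars2 reads. Without the 3 libraries low in Lars2 reads the log2 fold changes were -1.59 (adjusted p = 0.0938) and 0.23 (adjusted p = 0.999). The part of the Lars2 reads in the Id4 values was not tested. Annotated on the strand opposite Id4 are 2 genes, with 0 to 7 and 23 to 79 reads per library, and the strand setting of the authors' counting is not given in the sources used here.

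In Msx1 and Msx2 the genotypes overlapped. Msx1 had 130, 154, 71.8 and 120 CPM in deficient libraries, 67.4, 178, 220 and 136.5 CPM in heterozygous libraries, and 111 and 131 CPM in wildtype libraries. The heterozygous group held both the lowest and the highest library, and the log2 fold change of deficient against heterozygous libraries was -0.34 (SE 0.323, 95% interval -1.05 to 0.37; adjusted p = 0.65). With the stage score as a covariate this estimate turned to 0.15 (adjusted p = 0.7). Msx2 had 80.5, 91.9, 98.6 and 87.7 CPM in deficient libraries, 83.1, 80.1, 97.4 and 70.8 CPM in heterozygous and 89.7 and 76.8 CPM in wildtype libraries. All groups overlapped, and the 95% interval of deficient against heterozygous, -0.18 to 0.40 on the log2 scale, was the narrowest of the 10 genes.

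**Figure D2:**
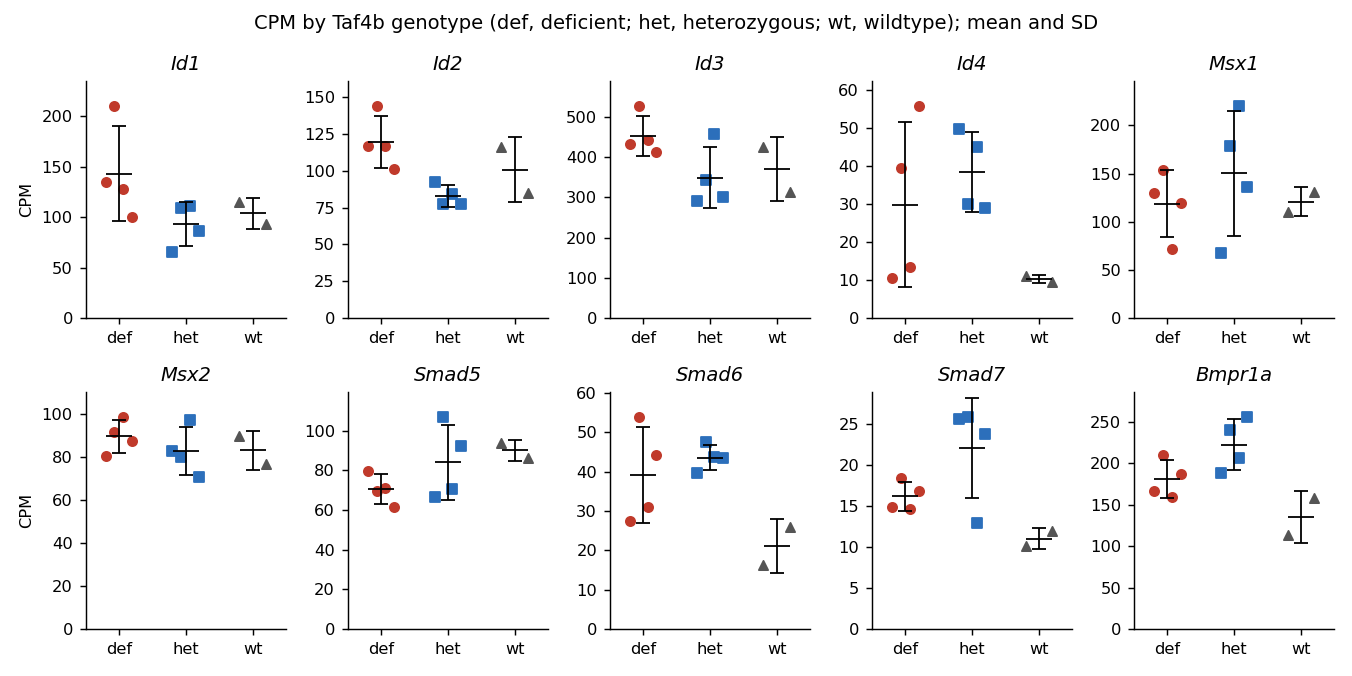
CPM of each gene by Taf4b genotype (def, deficient; het, heterozygous; wt, wildtype), 1 point per library, with the mean and SD of each group as bars. Id2 is the gene whose deficient and heterozygous points do not overlap, and Smad6, Smad7 and Bmpr1a are lowest in the 2 wildtype libraries.

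Smad5, the receptor-regulated transducer, had 79.9, 69.8, 71.0 and 61.4 CPM in deficient libraries, 66.4, 107, 70.4 and 92.45 CPM in heterozygous libraries and 93.9 and 86.3 CPM in wildtype libraries. All 4 deficient libraries lay below both wildtype ones in CPM and overlapped the heterozygous range. The log2 fold change of deficient libraries was -0.35 against wildtype (SE 0.2, 95% interval -0.79 to 0.087; adjusted p = 1) and -0.25 against heterozygous (SE 0.166, adjusted p = 0.529). The 3 small RNA genes annotated within Smad5 held 0 to 1 read per library.

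The inhibitory Smads and the receptor shared a different order of genotypes, with the wildtype libraries lowest in CPM. Smad6 had 27.4, 53.9, 31.1 and 44.2 CPM in deficient libraries, 39.5, 47.5, 43.8 and 43.4 CPM in heterozygous and 16.3 and 25.9 CPM in wildtype libraries. Every deficient and heterozygous library exceeded both wildtype libraries in CPM. Smad7 had 14.9, 18.4, 14.7 and 16.8 CPM in deficient libraries, 25.6, 25.8, 12.9 and 23.8 CPM in heterozygous and 10.1 and 11.9 CPM in wildtype libraries. Heterozygous replicate 3, low in Lars2 reads, lay below every deficient library, and the other heterozygous libraries lay above them all. The Smad7 log2 fold change of deficient against heterozygous libraries was -0.45 (SE 0.22, edgeR adjusted p = 0.444), and -0.76 (adjusted p = 0.191) without the 3 libraries low in Lars2 reads. Bmpr1a had 167, 211, 160 and 188 CPM in deficient libraries, 188, 240, 206 and 256 CPM in heterozygous and 113 and 158 CPM in wildtype libraries. An antisense gene overlapping Bmpr1a held 11 to 79 reads per library.

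In deficient against wildtype libraries none of the 10 genes was called, nor was any of the 20317 tested genes (0%), by edgeR, and DESeq2 called 1 gene and none of the 10. Unadjusted p was under 0.05 for 3 of the 10 (Id4, Smad6 and Bmpr1a), as for 3.66% of tested genes. In 4 of the 10 genes these groups did not overlap in CPM, Smad6, Smad7 and Bmpr1a on the higher side and Smad5 on the lower. Such a gap in CPM was held by 6.47% of tested genes on the higher and 6.18% on the lower side. In TPM only Smad7 stayed apart, with deficient libraries from 5.514 and wildtype ones up to 5.023. For Smad6, deficient replicate 1 at 15.86 TPM lay below wildtype replicate 2 at 15.91. For Bmpr1a, deficient replicate 3 at 47.33 TPM lay below wildtype replicate 2 at 51.46. For Smad5, deficient replicate 2 at 38.71 TPM lay above wildtype replicate 1 at 31.19. The log2 fold change was 0.89 for Smad6 (SE 0.288, unadjusted p = 0.0102), 0.55 for Smad7 (SE 0.276, unadjusted p = 0.0697) and 0.42 for Bmpr1a (SE 0.189, unadjusted p = 0.0478), with adjusted p = 1 for each. The median over the 10 genes was 0.36, beside 0.0046 over all tested genes. Within the January 29 litter, with 2 deficient libraries and 1 wildtype, the differences were 1.23, 0.70 and 0.73 for Smad6, Smad7 and Bmpr1a. Within the March 1 litter, with 1 library of each, they were 0.26, 0.30 and 0.02. Without the 3 libraries low in Lars2 reads the fitted log2 fold changes were 0.48, 0.43 and 0.28 (edgeR adjusted p = 0.999 for each).

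Heterozygous against wildtype libraries gave the largest estimates among the 10 for Id4, the inhibitory Smads and the receptor, and this comparison shares the wildtype pair with the one before. In 4 genes, Id4, Smad6, Smad7 and Bmpr1a, the groups did not overlap, with all heterozygous libraries above both wildtype libraries, as in 9.18% of tested genes, and these 4 had unadjusted p under 0.05, as 8.3% did. The log2 fold change was 1.90 for Id4 (SE 0.619, 95% interval 0.54 to 3.26; adjusted p = 0.337) and 1.05 for Smad6 (SE 0.29, 0.41 to 1.69; adjusted p = 0.247). It was 1.00 for Smad7 (SE 0.282, 0.38 to 1.62; adjusted p = 0.251) and 0.72 for Bmpr1a (SE 0.192, 0.30 to 1.14; adjusted p = 0.247). No member was called by edgeR, where 0.00492% of genes were, whereas DESeq2 called all 4 with adjusted p from 0.0285 to 0.0395, among 488 genes. Without the 3 libraries low in Lars2 reads edgeR called Id4 (1.81, adjusted p = 0.044) and Smad7 (1.19, adjusted p = 0.0374). The January 29 litter is the only one with both genotypes, 1 library of each, and there the differences were 1.39, 1.41, 1.23 and 1.18 for Id4, Smad6, Smad7 and Bmpr1a. With litter date as a term the adjusted p was 0.949 for each of the 4, with log2 fold changes of 0.89 for Id4, 0.98 for Smad6, 1.02 for Smad7 and 0.81 for Bmpr1a. Id1, Id2 and Id3 had 95% intervals that held 0, with log2 fold changes of -0.16, -0.28 and -0.08, and Msx1, Msx2 and Smad5 stood at 0.32, -0.007 and -0.10.

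**Figure D3:**
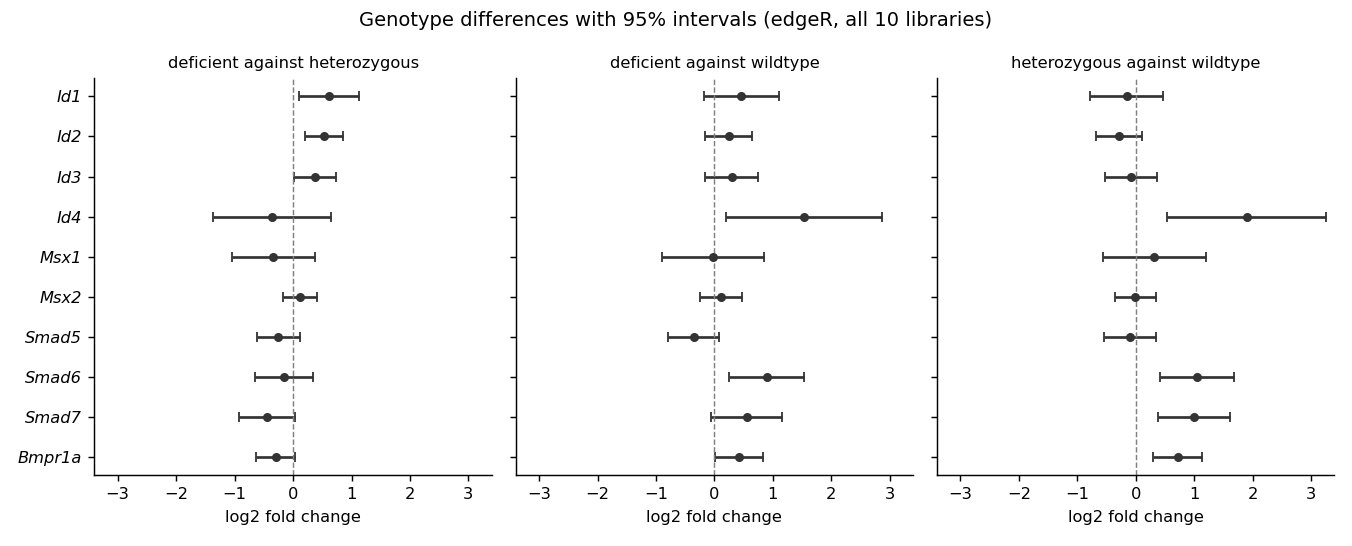
Log2 fold change of each gene with its 95% interval from edgeR for deficient against heterozygous, deficient against wildtype and heterozygous against wildtype libraries. The intervals of Id1, Id2 and Id3 lie above 0 in the first panel and those of Id4, Smad6, Smad7 and Bmpr1a in the third, before adjustment over the 20317 genes.

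The authors' deposited table of DESeq2 results lists all 10 genes, and none has an adjusted p under 0.05 there. The lowest in the authors' deposited table is that of Id2, with a log2 fold change of 0.39 and an adjusted p of 0.743. The contrast behind the authors' deposited table is not given in the sources used here, and Taf4b has a log2 fold change of -1.66 in it.

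Against meiotic stage, Msx1 moved the most of the 10 genes. Its RNA rose with the stage score within genotypes, with a slope of 0.37 log2 units per unit of the score (SE 0.0509, 95% interval 0.25 to 0.48; edgeR adjusted p = 0.000642). Id1 also passed the test, with a slope of 0.18 (SE 0.0597, 0.051 to 0.32; adjusted p = 0.0468). These 2 of 10 genes, both higher with stage, stand beside 24.8% of all tested genes that were called for the slope and 12.9% that were called higher, so the share is near that of genes at large. The score comes from the same libraries as the slopes.

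Read in order of stage, Msx1 stood at 71.8 CPM in deficient replicate 3 (score -3.11) and 67.4 CPM in heterozygous replicate 1 (-3.10). It stood at 120 CPM in deficient replicate 4 (-1.52), 111 CPM in wildtype replicate 1 (-1.33), 130 CPM in deficient replicate 1 (-1.10) and 131 CPM in wildtype replicate 2 (-1.05). In the most advanced libraries it stood at 154 CPM in deficient replicate 2 (-0.021), 136.5 CPM in heterozygous replicate 4 (0.48), 220 CPM in heterozygous replicate 3 (0.60) and 178 CPM in heterozygous replicate 2 (1.03). The least advanced deficient and heterozygous libraries were thus nearly equal, and those of middle score, deficient and wildtype, lay between 111 and 131 CPM. In each of the 3 litters the library lowest in the score was also the lowest in Msx1, and with litter date as a term the slope was 0.39 (adjusted p = 0.00201).

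Both calls depended on few libraries. The Msx1 slope without heterozygous replicate 1 was 0.36 (adjusted p = 0.0802), and without the 2 libraries lowest in the score it was 0.235 (SE 0.183, adjusted p = 0.861), a fit in which no gene of the table was called by edgeR. The Id1 slope lost its call in 15 of 25 alternative settings, including litter date as a term (0.17, adjusted p = 0.123). Id1 lay at 65.8 CPM in heterozygous replicate 1 but at 128 CPM in deficient replicate 3, at nearly the same score.

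**Figure D4:**
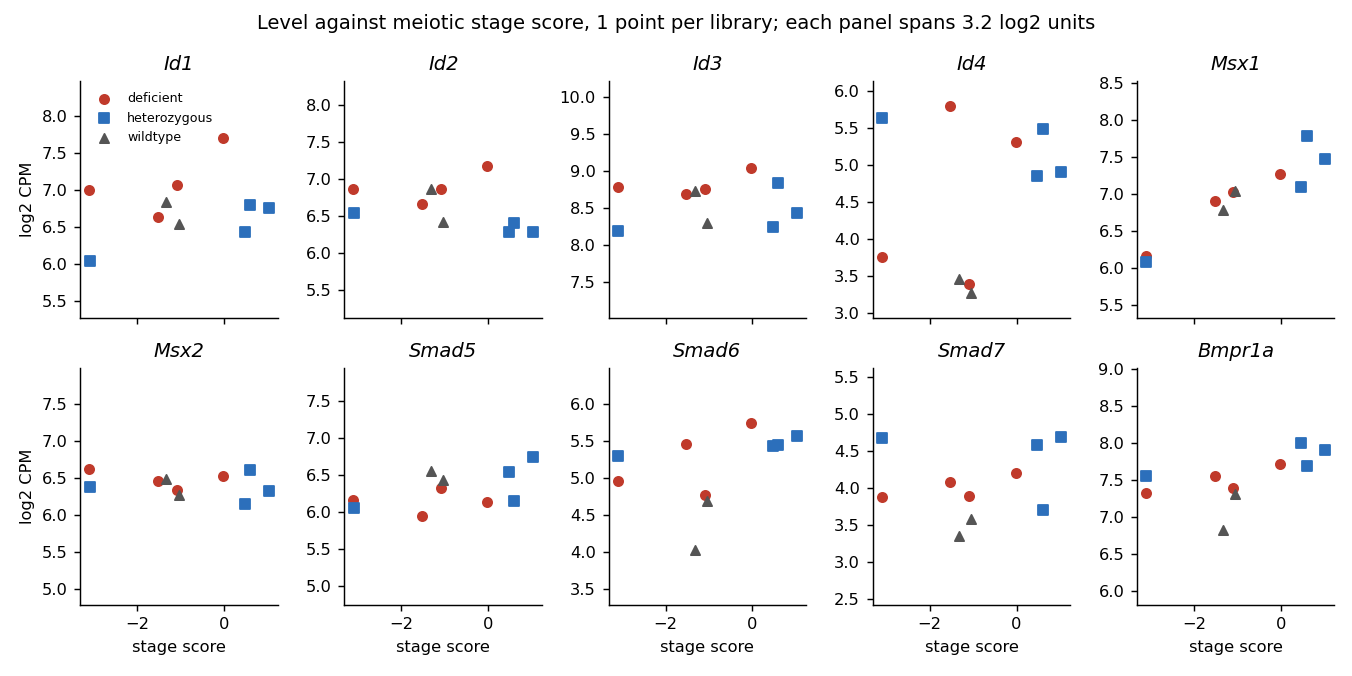
Log2 CPM of each gene against the meiotic stage score, 1 point per library, coloured by genotype; every panel spans the same number of log2 units. Msx1 tends to be higher at higher scores, and Msx2 stays level between 70.8 and 98.6 CPM.

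Msx2 had a slope of -0.017 (95% interval -0.11 to 0.076; adjusted p = 0.805), an interval that does not meet that of Msx1, although the difference between the paralogues was not itself tested. Id2 and Id3 had slopes of -0.014 (-0.12 to 0.091) and 0.08 (-0.038 to 0.19). Id4 had the widest interval, -0.37 to 0.35, around a slope of -0.0083. Without the 3 libraries low in Lars2 reads, Id4 was called lower with stage (-0.19, adjusted p = 0.00407) and Smad5 higher (0.15, adjusted p = 0.00524). That fit called 4 of the 10 genes, beside 6675 of 19701 tested genes, 3431 of them higher and 3244 lower. In all 10 libraries Smad5 had a slope of 0.09 (-0.026 to 0.20; adjusted p = 0.252) by edgeR on counts. On the TPM scale limma called it higher with stage in the same 10 libraries, at 0.22 on log2(TPM + 0.1) (adjusted p = 0.0299) and 0.21 on log2(TPM + 1) (adjusted p = 0.0304), and not without the filter on low values (0.22, adjusted p = 0.0635). Smad6 had a slope of 0.11 (-0.045 to 0.26) and Smad7 of -0.017 (-0.18 to 0.14). Bmpr1a had a slope of 0.10 (0.0033 to 0.19), with an unadjusted p of 0.0437 and an adjusted p of 0.124.

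The rest of the pathway was read from 7 lists of named genes, and none of their tested genes was called between genotypes by edgeR. On stage, where 12.9% of all tested genes were called higher and 11.9% lower, 1 of 7 tested ligands was called higher and 2 lower. Bmp4, the ligand that specifies mouse germ cells, had a slope of -0.54 (SE 0.0849, adjusted p = 0.00132) and had 9.635, 6.58, 15.3 and 14.6 CPM in deficient libraries, 22.5, 3.09, 7.35 and 3.92 CPM in heterozygous libraries, and 8.82 and 10.3 CPM in wildtype libraries. Its 2 highest libraries in CPM were the 2 lowest in the score, and deficient replicate 4 was close to deficient replicate 3. In TPM heterozygous replicate 1 was again the highest, at 22.7. Deficient replicate 3, at 5.685 TPM, lay below deficient replicate 1 at 9.612 and heterozygous replicate 3 at 9.283. Bmp7, another ligand, had a slope of -0.15 (SE 0.0355, adjusted p = 0.0111). Bmp6 had the smallest p of the ligands between deficient and heterozygous libraries, at 0.698 ± 0.382 and 1.70 ± 0.877 CPM (SD, n = 4 each; log2 fold change -1.27, edgeR adjusted p = 0.383). Its mean in the 2 wildtype libraries was 0.407 CPM, below both of those groups.

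Among receptors other than Bmpr1a, 0 of 5 were called higher with stage and 1 lower. That gene was Acvr1, a type I receptor like Bmpr1a, with a slope of -0.41 (SE 0.0542, adjusted p = 0.000476). The type II receptor gene Bmpr2 had a slope of 0.25 (SE 0.102, adjusted p = 0.1) at 3.95 to 13.4 CPM. Acvr2a, a type II receptor, averaged 37.7 ± 3.97 CPM in deficient and 44.2 ± 5.68 CPM in heterozygous libraries (SD, n = 4 each; edgeR adjusted p = 0.516). Of 3 transducers other than Smad5, Smad1 was called higher with stage (0.19, SE 0.0433, adjusted p = 0.01), and Smad9 had a slope of 0.15 (adjusted p = 0.349). Smad4, the shared partner of these Smads, averaged 34.7 ± 22.6 CPM in deficient and 61.9 ± 41.7 CPM in heterozygous libraries (SD, n = 4 each; edgeR adjusted p = 0.493), and its highest library was heterozygous replicate 3, low in Lars2 reads, at 121 CPM. The 2 wildtype libraries averaged 21.0 CPM for Smad4, below both groups, and 40.1 CPM for Acvr2a, between them.

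Of 13 tested inhibitors besides Smad6 and Smad7, 3 were called higher and 3 lower with stage, beside 12.9% and 11.9% of all tested genes. Bmper, a secreted BMP-binding protein, had a slope of 0.49 (SE 0.069, adjusted p = 0.000693) at 1.805 to 8.79 CPM, and Ppm1a, a phosphatase that acts on Smads, of -0.31 (SE 0.0593, adjusted p = 0.00398). Smurf2, a ubiquitin ligase for Smads and receptors, averaged 46.5 ± 7.13 CPM in deficient and 62.8 ± 12.5 CPM in heterozygous libraries (SD, n = 4 each; log2 fold change -0.43, edgeR adjusted p = 0.383). Of 11 other BMP targets, 2 were called higher and 5 lower with stage, beside the same 12.9% and 11.9%. Prdm14, a regulator of germ cell specification, had a slope of -0.54 (SE 0.0383, adjusted p = 2.36e-05), and Hey1, a helix-loop-helix repressor that also answers to Notch, of -0.64 (SE 0.0493, adjusted p = 2.92e-05). Gata2 averaged 269 ± 3.78 CPM in deficient and 233 ± 18.0 CPM in heterozygous libraries (SD, n = 4 each, log2 fold change 0.21, edgeR adjusted p = 0.426). These groups did not overlap in CPM, with deficient libraries higher, as in 3.31% of tested genes. In TPM they overlapped, at 96.48 to 108.8 in deficient and 87.43 to 112.3 in heterozygous libraries. Wildtype libraries averaged 263 CPM for Gata2 and 46.1 CPM for Smurf2, near the deficient mean of each. Zglp1, a BMP-induced determinant of the oogenic fate in mice, had 0 to 4 reads per library and was not tested.

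The E proteins and a list of meiotic entry genes were read in the same way. Of the 3 E proteins that Id proteins bind, Tcf12 was called higher with stage (0.14, SE 0.041, adjusted p = 0.0268) and Tcf4 lower (-0.22, SE 0.0412, adjusted p = 0.00322). Tcf12 averaged 147 ± 9.83 CPM in deficient and 214 ± 50.7 CPM in heterozygous libraries (SD, n = 4 each; log2 fold change -0.54, edgeR adjusted p = 0.365). Of 8 meiotic entry genes, 6 were called higher with stage and 0 lower, beside 12.9% and 11.9% of all tested genes. The score is itself made in part from meiotic genes of the same libraries, so this share is no independent result. Among the 6 were Meioc, which maintains the prophase of meiosis (0.60, SE 0.049, adjusted p = 4.02e-05), and Stra8, the inducer of meiotic entry (0.53, SE 0.0457, adjusted p = 5.41e-05). Gm4969, which RefSeq lists as a synonym of Meiosin, the partner of Stra8, averaged 103 ± 50.0 CPM in deficient and 267 ± 189 CPM in heterozygous libraries (SD, n = 4 each; log2 fold change -1.36, edgeR adjusted p = 0.411). Wildtype libraries lay between these groups on average, at 177 CPM for Tcf12 and 160 CPM for Gm4969. Without heterozygous replicate 1 the slopes of Bmp4, Bmp7, Acvr1, Smad1, Bmper, Ppm1a, Tcf4 and Tcf12 lost their calls, and that of Tcf12 also without deficient replicate 3 or heterozygous replicate 2. Those of Prdm14, Hey1, Meioc and Stra8 passed in each fit without a single library, and lost their calls without both libraries lowest in the score.

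**Figure D5:**
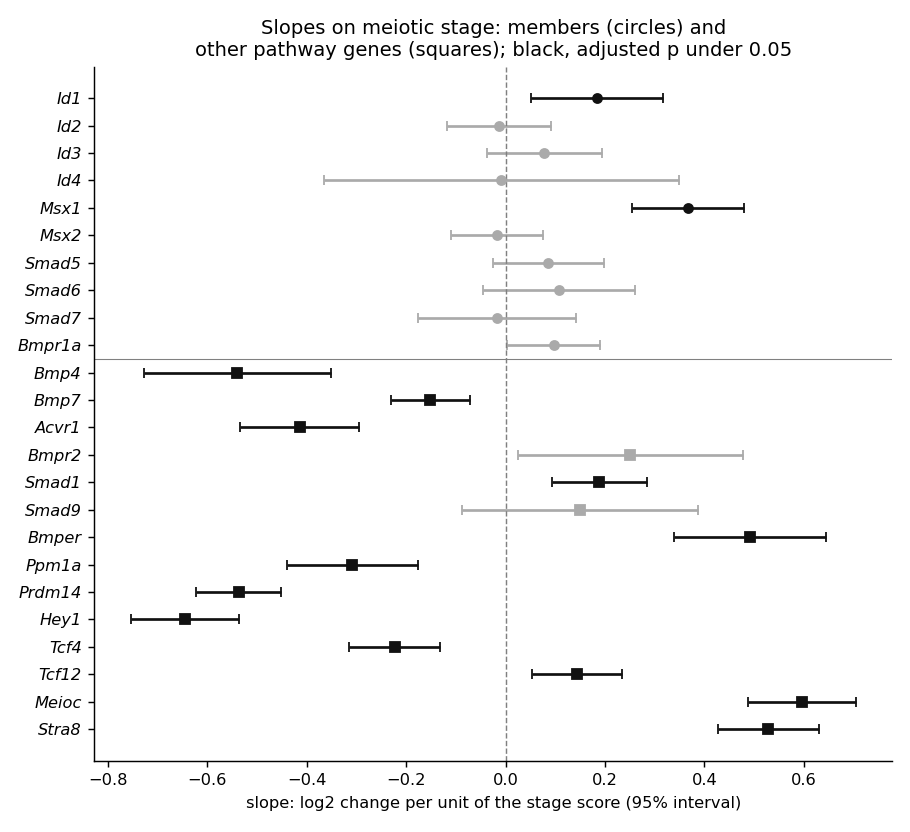
Slope on the meiotic stage score in log2 units per unit, with 95% intervals, for the 10 genes (circles) and for the 2 genes with the smallest p from each pathway list (squares); black marks an adjusted p under 0.05. Msx1, at 0.37, lies between Bmpr2 at 0.25 and Bmper at 0.49. Among the squares, Bmp4, Bmp7, Acvr1, Ppm1a, Prdm14, Hey1 and Tcf4 lie below 0.

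The genes whose log2 CPM ran most like that of each member were taken from 10232 tested genes with a mean of at least 5 CPM, over the 10 libraries. For Msx1 they were Tmem9b (Pearson's r = 0.993) and Pde6d (0.988). For the Id genes they were Mrpl55 (0.98) and Ucp2 (0.975) beside Id1, Psma1 (0.973) and Psmd8 (0.965) beside Id2, Wdr83 (0.97) and Jagn1 (0.967) beside Id3, and Hdgf (0.989) and Cdk2ap1 (0.983) beside Id4. Msx2 was nearest to Eif2b1 (0.968) and Psmc3ip (0.947), the last of which is part of the stage score. Smad5 was nearest to Nomo1 (0.985) and Rarg (0.967), Smad6 to Gna11 (0.981) and Pptc7 (0.98), Smad7 to Mtcl1 (0.969) and Rmnd5a (0.968), and Bmpr1a to Lrp6 (0.988) and Noct (0.983). On the TPM scale the likeness of Smad5 to Nomo1 and Rarg fell to 0.463 and 0.387 and that of Msx2 to Psmc3ip to 0.506, whereas Msx1 and Tmem9b kept 0.991. With 10 libraries and this many genes, such values are a description and no test.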

How the data were processed

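The submitters' processing notes name Trim Galore 0.5.0 for trimming, FastQC 0.11.5 for quality, HISAT2 2.1.0 as aligner, GRCm38 as build and SAMtools 1.9. The authors deposited gene counts from featureCounts (Subread 1.6.2) and StringTie (1.3.3b) TPM values, which those notes also name. A deposited table of DESeq2 output gives, per the file headers, a mean normalised count (a signal), the log2 fold change and its error, the test's score and each p-value. Its contrast, and the strand and other settings, are not given in the sources used here.

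Counts were used as deposited. Of 55536 genes, 20317 passed edgeR's filterByExpr by genotype. TMM scaling and 1 edgeR 4.0.16 quasi-likelihood fit with 3 genotypes over all 10 libraries gave the 3 comparisons, and a second fit added the stage score (log2 CPM with a prior count of 2) to give slopes. Adjusted p is Benjamini-Hochberg over all tested genes, from edgeR unless another tool is named, with calls under 0.05. CPM and TPM are given as mean ± SD or per library. SE comes from the F statistic, and intervals cover 95%. Self-tests on simulated counts were run first. Every pair of libraries differed beyond sampling noise (chi-square per degree of freedom at least 9.61 over 45 pairs), so none was counted as a repeat sequencing. This check cannot tell separate fetuses from separate preparations of the same fetus.

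Alternatives were other scaling, filters, DESeq2 1.42.0, limma 3.58.1 on log2 TPM, litter date, a replicate block, other stage scores and each library left out. The rule for names took all 10 members, Taf4b, from each list the 2 genes with the smallest p for the slope and the 1 between deficient and heterozygous libraries, and the 2 genes most like each member. The members and lists were chosen with earlier results of these data known, Lars2, Zglp1, Coro1a and Pecam1 were named after their values were seen, and leaving out libraries by Lars2 reads or by stage was added after the data were seen. Gene positions come from GENCODE and promoters from RefSeq.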

Additional observations from a re-analysis of the deposited data

Results flagged for a closer look

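Among groups of 4 libraries, 64 groups of values were searched for a library set apart from the rest, which chance finds in about 1 of 20 groups, and 4 were found. Smad7 in heterozygous replicate 3, a library low in Lars2 reads, stood at 12.9 CPM, below the other heterozygous libraries at 23.8 to 25.8 CPM. Heterozygous replicate 1 stood apart in the other 3: its stage score was -3.1 against 0.478 to 1.03, Prdm14 was 73.6 CPM against 15.4 to 20.6 CPM, and Hey1 was 32.5 CPM against 5.33 to 7.97 CPM.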

How the results depend on the processing

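No alternative called any of the 10 genes in either comparison of deficient libraries. Genes called between deficient and heterozygous libraries numbered 3, against 6 with RLE scaling, with upper quartile scaling and with a mean of at least 1 CPM, 14 with no filter, 224 with DESeq2, 1 with limma on log2(TPM + 0.1), 7 with stage as a covariate, 97 without the 3 libraries low in Lars2 reads, 0 to 519 without single libraries, and 0 with litter date, with limma on log2(TPM + 1) and with unfiltered limma. Between deficient and wildtype libraries the count was 0, against 1 with no filter, with DESeq2 and with stage as a covariate, 12 with unfiltered limma and 0 to 1 without single libraries. Between heterozygous and wildtype libraries it was 1, against 268 with no filter (1 of the 10 genes, Id4), 488 with DESeq2 (4 of the 10), 147 with only those groups fitted (Id4), 186 without the libraries low in Lars2 reads (2 of the 10), 3 with stage as a covariate, 13 with unfiltered limma, and 0 with litter date, with filtered limma and without single libraries.

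For the slope, 5045 genes were called, against 3181 with unfiltered limma, 0 without the 2 libraries lowest in stage and 663 (without heterozygous replicate 1) to 5727 without single libraries. Leaving out the 3 libraries low in Lars2 reads gave 6675 of 19701 tested genes. Of the 10 genes 2 were called, against 1 (Msx1) with upper quartile scaling, litter date, unfiltered limma, the pluripotency score or no genotype term, 3 (Id1, Msx1 and Smad5) with limma on log2(TPM + 0.1) or log2(TPM + 1), 4 without the libraries low in Lars2 reads, 0 without the 2 lowest in stage, and 0 to 2 without single libraries. Same-numbered libraries had r of -0.421 to 0.382 between deficient and heterozygous groups and 0.081 to 0.097 in pairs with wildtype, so the numbers were not taken as pairs. With the replicate block, 0 genes were called between any genotypes, 1390 for the slope and 1 of the 10 (Msx1, 0.39, adjusted p = 0.0198; Id1 0.21, adjusted p = 0.115).

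The sign turned only where the estimate missed the threshold, and the cause was not tested. With litter date, Id4 was 0.075 in deficient against heterozygous libraries and 0.027 for the slope, and Smad5 0.034 in heterozygous against wildtype libraries. Under the replicate block the slopes of Id2, Msx2 and Smad6 were 0.023, 0.0025 and -0.024. With limma on log2(TPM + 0.1), filtered or not, Msx2 was 0.079 in heterozygous against wildtype libraries, and the slopes of Id2, Id4, Msx2 and Smad7 were 0.012, 0.061, 0.017 and 0.019; on log2(TPM + 1) these 5 values were 0.078, 0.012, 0.053, 0.016 and 0.016. With stage as a covariate Msx1 was 0.15, 0.017 and -0.13 in deficient against heterozygous, deficient against wildtype and heterozygous against wildtype libraries, and Msx2 0.0099 in the last. The Id4 slope was 0.083 on the pluripotency score and 0.049 with no genotype term, where that of Smad7 was 0.044. The Smad7 slope was 0.00098 without the libraries low in Lars2 reads, and the slopes of Id2, Msx2 and Smad7 were 0.20, 0.017 and 0.19 without the 2 lowest in stage.

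Without single libraries, heterozygous against wildtype ran from -0.35 to 0.0033 for Id1, -0.34 to 0.16 for Id3, -0.16 to 0.11 for Msx2 and -0.056 to 0.34 for Taf4b. Deficient against wildtype ran from -0.18 to 0.15 for Msx1 and -0.0058 to 0.22 for Msx2. Slopes ran from -0.058 to 0.072 for Id2, -0.14 to 0.36 for Id4 and -0.054 to 0.12 for Smad7. The 2 wildtype libraries limit every comparison with that genotype, and 1 of 3 litters holds both it and heterozygous libraries.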
